A study of Mus musculus with 82 samples.

Results

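The genes described here are 38 genes of BMP and TGF-beta signalling, of 47480 genes in the deposited table. They were chosen by name: 3 TGF-beta ligands, 6 BMP ligands, 3 activin or inhibin subunits, 10 receptors, 6 antagonists, 4 SMAD or SKI genes, 3 Id genes and 3 latent TGF-beta binding proteins. All 38 passed the filter on low counts, as did 22847 genes in all.

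RNA of 82 individual, untreated mouse mammary tumours from 13 tumour models had been sequenced, models which the study describes as covering basal-like, claudin-low and other subtypes. The 64 libraries of BALB/c tumours covered 2153 (n = 7), 2208 (n = 12), 2224 (n = 4), 2225 (n = 10), 2250 (n = 11), 2336 (n = 5), 4T1 (n = 5), 9263 (n = 7) and T12 (n = 3). The 15 libraries of FVB tumours covered MMTV-NEU (n = 8), MMTV-PYMT (n = 5) and KPB1-A (n = 2), and the 3 of C57BL/6 tumours were all E0771. Strain and model therefore cannot be told apart beyond a comparison within a strain. The labels give no genotype, age or way of raising the tumours. 4T1 and E0771 are names of established mouse mammary carcinoma lines, and the MMTV names stand for an oncogene transgene under a mouse mammary tumour virus promoter, which drives expression mainly in mammary epithelium. The median library held 58.2 M counts, the smallest 14.4 M and the largest 132.7 M.

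TGF-beta, activin and BMP ligands are secreted dimers that bind pairs of serine/threonine kinase receptors on the cell surface. The receptors phosphorylate SMAD proteins, which enter the nucleus and change transcription. BMP signalling typically raises Id1, Id2 and Id3, and both branches raise the inhibitory Smad6 or Smad7. TGF-beta is stored in the matrix in a latent form held by LTBP proteins, and BMPs are held back outside the cell by noggin, chordin, gremlin and related antagonists. In the mammary gland TGF-beta restrains ductal growth, and BMP and activin signals take part in the development of the epithelium.

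Levels are CPM (counts scaled to the TMM-adjusted library size), given as mean ± SD over libraries. A difference is the log2 difference ± SE between a model and the other 12 models, each of these weighing the same, with a Benjamini-Hochberg adjusted p over all genes from edgeR. A gene is said to stand alone high in a model when every library of that model lies above every other library, and alone low when every library lies below. Each library is described as 1 tumour, and whether a model's tumours grew in separate animals is not said, so the p-values speak for the spread of these tumours only. The p-values also treat the libraries as independent. How far libraries with close label numbers resembled each other is described below. These are bulk tumours, in which fewer cells of a type and less RNA per cell cannot be told apart. Coordinates refer to mm10 with the GENCODE M21 gene models.

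RefSeq promoter windows, the 250 bases before a gene's start on GRCm38.p6, were matched for 26 of the 38 genes. Of the ligand and subunit genes among these, 6 stood alone high in a model (Tgfb1, Tgfb2, Bmp4, Bmp5, Inhba and Inhbb), and 3 of them are printed to show what a match looks like. Capitals mark the letters searched, on either strand.
Bmp4 (chr14:46390670-46390919, minus strand): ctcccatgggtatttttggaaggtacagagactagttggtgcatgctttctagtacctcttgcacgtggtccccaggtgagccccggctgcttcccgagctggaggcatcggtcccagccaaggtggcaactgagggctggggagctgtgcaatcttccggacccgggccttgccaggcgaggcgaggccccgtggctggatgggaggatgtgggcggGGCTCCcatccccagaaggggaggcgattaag
Bmp5 (chr9:75775115-75775364, plus strand): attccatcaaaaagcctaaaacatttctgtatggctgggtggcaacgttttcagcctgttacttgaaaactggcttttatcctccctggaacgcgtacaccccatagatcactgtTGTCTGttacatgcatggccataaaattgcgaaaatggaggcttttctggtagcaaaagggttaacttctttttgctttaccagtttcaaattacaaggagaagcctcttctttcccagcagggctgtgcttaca
Inhba (chr13:16011601-16011850, plus strand): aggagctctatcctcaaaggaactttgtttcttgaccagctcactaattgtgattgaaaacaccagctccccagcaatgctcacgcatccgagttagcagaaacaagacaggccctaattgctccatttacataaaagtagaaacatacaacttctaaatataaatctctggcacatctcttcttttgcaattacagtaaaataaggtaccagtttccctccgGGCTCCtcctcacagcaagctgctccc
The letters searched were GGCGCC and GGAGCC, which resemble sites of the BMP SMADs, CAGACA, which holds the short SMAD box, and GTCTAGAC, the palindrome of that box. The Bmp4 and Inhba windows each held GGAGCC once, written as its reverse complement, and the Bmp5 window held CAGACA once. Of the 3 not printed, Tgfb1 held GGAGCC once, Tgfb2 held CAGACA once and Inhbb held none of these letters. Over 30 windows of the matched genes, 6 held GGCGCC, 15 GGAGCC, 5 CAGACA and 0 GTCTAGAC. Among all 32851 windows the shares were 9.59%, 26.0%, 17.1% and 0.167%. Such a match describes the letters only.

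All 38 genes differed among the 13 models by the F test of edgeR, as did 98.2% of all 22847 genes tested, so that passing this test sets no gene apart. Their model means spread over a median of 4.09 log2 units between the highest and the lowest model, against 2.64 over all genes tested. Models accounted for a median of 84.1% of a gene's variance in log2 CPM, against 75.3% over all genes. The spread was widest for the 3 activin or inhibin subunits (median 7.61 log2 units), the 6 antagonists (7.13) and the 6 BMP ligands (5.60). Receptors (2.65) and SMAD or SKI genes (2.71) varied least. In 14 of the 38 genes a model stood alone high, compared with 19.1% of all genes, and in 7 a model stood alone low, compared with 9.06%. With a mean of at least 5 CPM in the highest model, 13 genes stood alone high, compared with 14.4% of all genes.

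**Figure D1:**
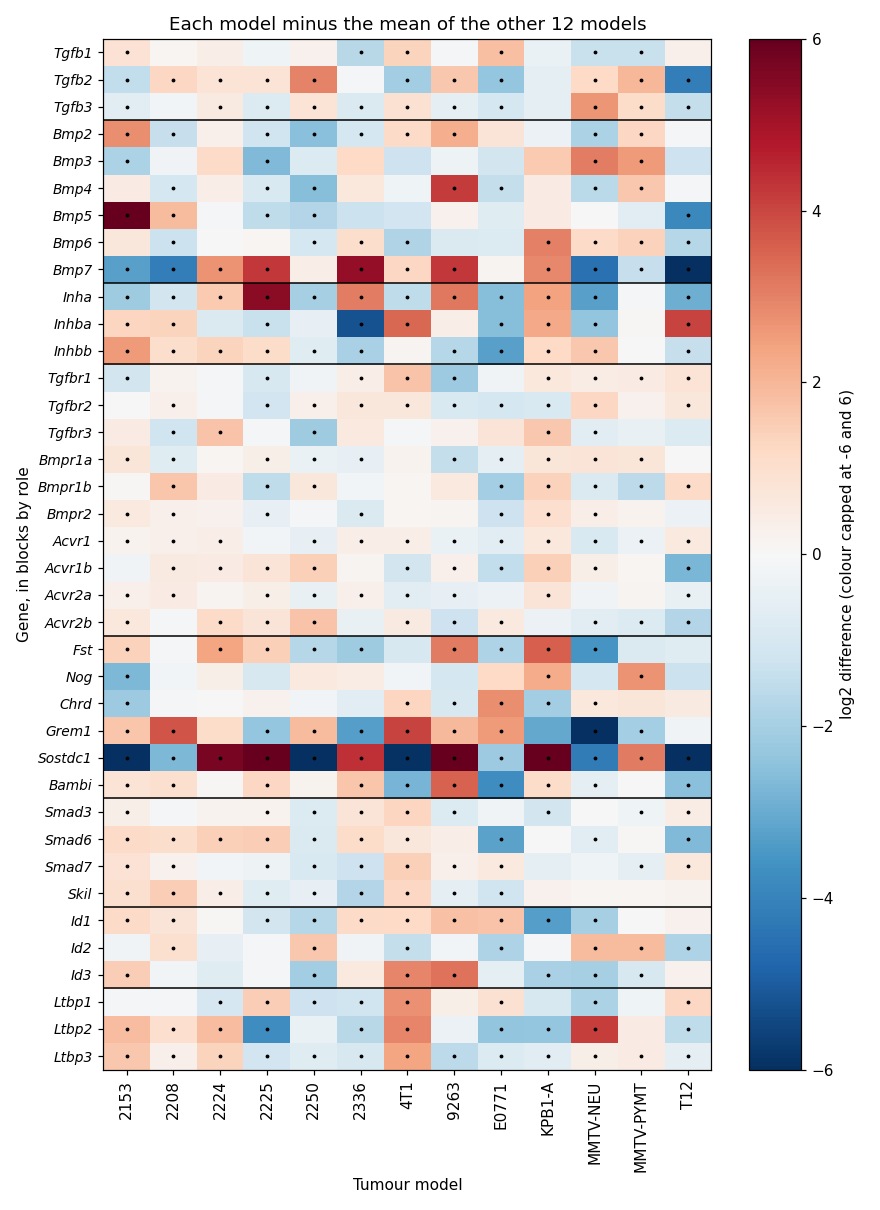
Log2 difference of each model from the mean of the other 12 models, for the 38 genes in blocks by role. Colour gives the difference, capped at -6 and 6, and a dot marks an adjusted p under 0.05 (edgeR). The antagonist Sostdc1 and the ligand Bmp7 change most between models, with ranges of 11.37 and 12.13 log2 units in their model means, and the receptor rows are pale.

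Each of the 3 TGF-beta ligands was highest in a different model. Tgfb1 (chr7:25687002-25705077, plus strand), the isoform best known from immune and wound signalling, stood alone high in E0771, at 253, 251 and 237 CPM in its 3 libraries. The highest library of any other model was 214 CPM, in 4T1. The mean in E0771 was 247 ± 8.57 CPM, a log2 difference of 1.82 ± 0.20 (adjusted p = 1.02e-12). Tgfb1 was lowest in 2336 (26.1 ± 4.96 CPM, n = 5), where libraries overlapped those of MMTV-NEU and MMTV-PYMT.

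Tgfb2 (chr1:186622792-186705989, minus strand), an isoform prominent in epithelia and the embryo, had both an upper and a lower extreme. In 2250 its 11 libraries ran from 160 through a median of 194 to 290 CPM, above the 146 CPM of the highest other library. That was a log2 difference of 2.99 ± 0.11 (adjusted p = 2.42e-37). In T12 it was 1.51, 3.64 and 1.28 CPM, below the lowest library of the other models at 6.08 CPM, a log2 difference of -4.13 ± 0.33 (adjusted p = 3.05e-18). E0771 (6.84 ± 0.82 CPM), 4T1 (7.96 ± 1.87 CPM) and 2153 (11.6 ± 3.79 CPM) were the next lowest models.

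Tgfb3 (chr12:86056745-86079041, minus strand) stood alone high in MMTV-NEU, where 8 libraries ran from 335 through a median of 468 to 808 CPM. The nearest library elsewhere was 316 CPM, in MMTV-PYMT, so the gap between the 2 models was small. The mean was 511 ± 168 CPM against 189 ± 100 CPM in MMTV-PYMT, and the log2 difference from all other models was 2.66 ± 0.12 (adjusted p = 5.78e-33). T12 was lowest at 37.9 ± 8.85 CPM.

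Of the 6 BMP ligands, Bmp4, Bmp5 and Bmp7 each stood alone high in a different model. Bmp5 (chr9:75775364-75900310, plus strand), a ligand of skeletal and limb development, was high in 2153. Its 7 libraries there held 24.4 to 161 CPM with a median of 99.1 CPM, and the highest library elsewhere held 8.59 CPM, in 2208. The mean of 98.9 ± 39.9 CPM was 57 times that of the next model, 2208 (1.73 ± 2.18 CPM), and the log2 difference was 8.32 ± 0.40 (adjusted p = 9.65e-30). The 2208 mean rests in part on its library at 8.59 CPM: without it that mean was 1.11 CPM and the ratio 89. In the other 11 models the mean was at most 0.665 CPM. A predicted gene, Gm26903, shares up to 1878 exon bases with Bmp5 on the opposite strand, at a mean of 0.177 CPM.

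Bmp4 (chr14:46383520-46390669, minus strand), a ligand that acts in many tissues of the embryo, stood alone high in 9263. Its 7 libraries held 12.9 to 29.5 CPM with a median of 21.1 CPM, above the highest library elsewhere, 12 CPM in MMTV-PYMT. The log2 difference was 4.18 ± 0.24 (adjusted p = 7.83e-26). All models other than 9263 and MMTV-PYMT had a mean of at most 2.15 CPM (2336).

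Bmp7 (chr2:172868012-172940321, minus strand), a ligand of kidney and epithelial development, spanned 12.13 log2 units, the widest range of the 38 genes. In 2336 the 5 libraries held 633, 601, 704, 801 and 678 CPM, above every other library of the series. The log2 difference there was 5.30 ± 0.31 (adjusted p = 3.53e-25). Next came 9263 (352 ± 73.8 CPM, n = 7) and 2225 (352 ± 66.6 CPM, n = 10), whose means did not differ beyond their spread, with log2 differences of 4.26 ± 0.29 and 4.26 ± 0.27. KPB1-A (145 ± 15.6 CPM) and 2224 (128 ± 27.4 CPM) overlapped each other.

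At the other end, Bmp7 in T12 was 0.300, 0.0881 and 0.0542 CPM, below every other library (log2 difference -7.89 ± 0.99, adjusted p = 1.84e-10). It was also low in 2208 (1.63 ± 0.816 CPM, n = 12, log2 difference -4.14 ± 0.39, adjusted p = 5.29e-15). In MMTV-NEU 7 of 8 libraries held at most 1.02 CPM and replicate 8 held 6.70 CPM (log2 difference -4.47 ± 0.49, adjusted p = 9.73e-13). The 5 libraries of MMTV-PYMT held 41.5, 1.23, 1.10, 0.306 and 2.83 CPM, so that its mean of 9.40 ± 18.0 CPM rests on replicate 1.

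Bmp2, Bmp3 and Bmp6 were low. Bmp2, a ligand of bone formation, was highest in 2153 (15.8 ± 9.36 CPM) and 9263 (11 ± 5.40 CPM), whose libraries overlapped, and lowest in 2250 (0.545 ± 0.310 CPM). Bmp6 was highest in KPB1-A (3.96 ± 1.38 CPM) and lowest in 4T1 (0.178 ± 0.0902 CPM). Its exons, 3.9 kb in all, share up to 224 bases with Txndc5 on the opposite strand, a gene at a mean of 227 CPM. The strand of the counting is not stated, so the origin of reads within the shared bases is uncertain. Bmp3 held at most 5.20 CPM in any library and was at 0 in 9 of 82. Its means ran from 1.74 ± 1.60 CPM in MMTV-NEU to 0.0412 ± 0.0356 CPM in 2225, and models accounted for 35.1% of its variance, the lowest share of the 38 genes.

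**Figure D2:**
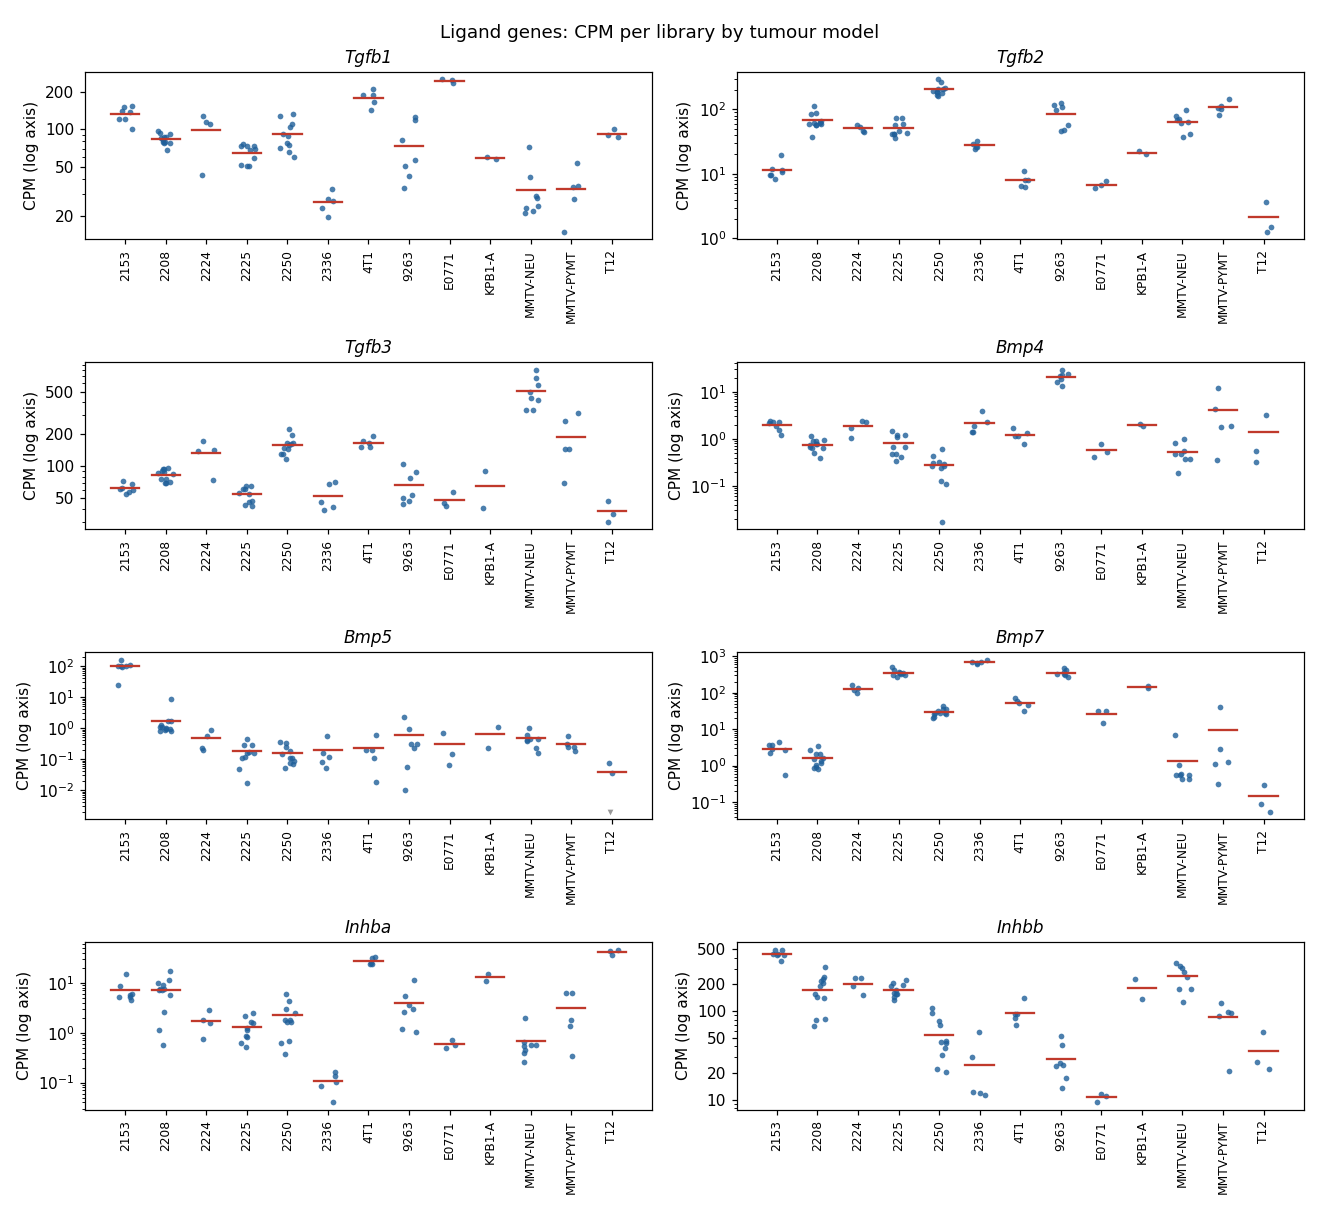
CPM per library on log axes for 8 ligand genes in the 13 models. Points are libraries, red bars are model means and grey triangles at the lower edge are libraries at 0. The 7 libraries of 2153 carry Bmp5 at 24.4 to 161 CPM against at most 8.59 CPM elsewhere, and Bmp7 falls from 683 CPM on average in 2336 to 0.147 CPM in T12.

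The activin subunits Inhba and Inhbb and the inhibin subunit Inha, which turns an activin into its antagonist inhibin when it pairs with a beta subunit, had their highest levels in 3 different models. Inhba (chr13:16011851-16031621, plus strand) stood alone high in T12, at 45.6, 42.3 and 36.2 CPM, against 32.9 CPM in the highest library elsewhere (4T1). The log2 difference was 4.07 ± 0.36 (adjusted p = 4.56e-16). 4T1 followed at 27.5 ± 4.47 CPM and KPB1-A at 12.9 ± 2.66 CPM. In 2336 it stood alone low, at 0.137, 0.105, 0.0855, 0.0411 and 0.163 CPM (log2 difference -5.22 ± 0.70, adjusted p = 1.06e-09).

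Inhbb (chr1:119415465-119422248, minus strand) stood alone high in 2153, where 7 libraries held 364 to 490 CPM with a median of 435 CPM. The highest library elsewhere was 349 CPM, in MMTV-NEU, and the log2 difference was 2.54 ± 0.20 (adjusted p = 1.03e-18). It was lowest in E0771 at 10.7 ± 1.09 CPM. Inha (chr1:75507077-75510366, plus strand) was highest in 2225, at 8.76 to 45.2 CPM over 10 libraries with a median of 27.1 CPM (log2 difference 5.40 ± 0.25, adjusted p = 1.96e-31). The lowest library of 2225 overlapped those of 9263, the next model at 6.84 ± 3.92 CPM. 2336 (6.44 ± 2.36 CPM), KPB1-A (4.26 ± 0.105 CPM) and 2224 (2.45 ± 0.681 CPM) followed. The remaining 8 models had a mean under 1 CPM, from 0.112 CPM (MMTV-NEU) to 0.843 CPM (MMTV-PYMT). Over the 13 model means, Inhba and Inhbb were weakly related (r = 0.27, rho = 0.15, on log2 values), and so were Inhba and its antagonist Fst (r = 0.40, rho = 0.44).

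Receptor genes varied less than ligands. Tgfbr1 (chr4:47353222-47414931, plus strand), the type I receptor of TGF-beta, was the only one of the 10 to stand alone high. In 4T1 its libraries held 184, 178, 167, 156 and 152 CPM, against 115 CPM in the highest library elsewhere (MMTV-NEU). The log2 difference was 1.72 ± 0.13 (adjusted p = 5.17e-19). In 9263 it stood alone low at 14 ± 5.48 CPM, by a narrow margin, since its highest library held 21.7 CPM and the lowest library elsewhere 21.8 CPM (2225).

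Tgfbr2, the type II receptor of TGF-beta, was highest in MMTV-NEU (309 ± 52.1 CPM) and lowest in 2225 (67.5 ± 5.27 CPM). Acvr1b, a type I receptor of activin, was highest in KPB1-A (200 ± 58.4 CPM) and 2250 (197 ± 30.5 CPM) and stood alone low in T12, at 13.7 ± 2.63 CPM. Tgfbr3, the betaglycan coreceptor that presents TGF-beta2 and inhibin, was highest in 2224 (196 ± 77.2 CPM) and lowest in 2250 (16.7 ± 4.41 CPM), the model with the highest Tgfb2. The 2 libraries of KPB1-A held Tgfbr3 at 314 and 50.9 CPM, one of them above and the other below all of 2224.

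Bmpr1a, a type I BMP receptor, ran from 171 ± 23.4 CPM in MMTV-NEU to 41.4 ± 9.89 CPM in 9263, the model with the highest Bmp4. Bmpr2, the type II BMP receptor, ran from 233 ± 33.3 CPM in KPB1-A to 56.6 ± 7.89 CPM in E0771. The type I receptor Acvr1 ran from 56.9 ± 13.7 CPM (KPB1-A) to 21.4 ± 4.28 CPM (MMTV-NEU). The type II receptor Acvr2a had the narrowest range of the 38 genes, 1.36 log2 units, from 39.1 ± 6.31 CPM (KPB1-A) to 15.2 ± 1.93 CPM (4T1). Acvr2a shares up to 446 exon bases with Orc4 on the opposite strand, a gene at a mean of 38.2 CPM. The type II receptor Acvr2b was lower throughout, from 7.65 ± 1.90 CPM in 2250 to 0.828 ± 0.140 CPM in T12.

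Compared per kilobase of exon, the most abundant receptor differed from model to model. Acvr1b led in 2208, 2225, 2250, 9263 and KPB1-A, reaching 45.4 CPM per kilobase in KPB1-A. Tgfbr2 led in 2336, 4T1, MMTV-NEU and T12, Bmpr1a in 2153 and MMTV-PYMT, and Tgfbr3 in 2224 and E0771. Bmpr1b, a type I BMP receptor, was the least abundant per kilobase in 12 of 13 models, at 0.0491 (E0771) to 0.525 (2208) CPM per kilobase in them. T12 was the exception, where Acvr2b was lowest at 0.211. In CPM, Bmpr1b ran from 0.293 ± 0.187 (E0771) to 3.13 ± 1.48 (2208).

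Among the antagonists, Sostdc1 (chr12:36314139-36318452, plus strand), a secreted inhibitor of BMP and Wnt signals known in skin appendages, was the most sharply divided. It held 105 and 88.4 CPM in the 2 libraries of KPB1-A, 62.3 to 103 CPM with a median of 81.3 CPM in 9263 and 21.3 to 45.3 CPM with a median of 26.9 CPM in 2225. In 2224 it was 17.1, 29.6, 16.9 and 33.3 CPM, and in 2336 it was 15.5, 16.4, 12.7, 1.63 and 6.93 CPM. The log2 differences were 7.85 ± 0.36 in KPB1-A, 7.61 ± 0.34 in 9263, 6.05 ± 0.31 in 2225, 5.69 ± 0.35 in 2224 and 4.39 ± 0.34 in 2336, and the adjusted p was at most 5.36e-19 (2336).

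Elsewhere Sostdc1 was at or near 0, with the exception of MMTV-PYMT, whose libraries held 17.8, 0.516, 0.183, 2.59 and 2.54 CPM. It was at 0 in 23 of 82 libraries, and a count of 0 allows up to 3 counts, or 0.0262 to 0.200 CPM in those libraries. Means were 0.00452 CPM in 2153, 0.00551 CPM in 2250, 0.0115 CPM in 4T1, 0.0116 CPM in T12 and 0.0642 CPM in MMTV-NEU. Each of these models was lower than the others by the test, with adjusted p from 5.05e-11 (2250) to 3.95e-06 (T12). The fitted differences, -6.89 ± 0.88 in 2153, -6.87 ± 0.84 in 2250, -5.99 ± 1.10 in T12, -5.94 ± 0.86 in 4T1 and -4.18 ± 0.71 in MMTV-NEU, rest on a few counts. Means in E0771 (0.151 CPM) and 2208 (0.0955 CPM) were also near 0.

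Grem1 (chr2:113746164-113758646, minus strand), which binds BMP2 and BMP4, was highest in 4T1, at 16.8, 51.0, 43.4, 11.2 and 20.4 CPM (log2 difference 4.05 ± 0.46, adjusted p = 9.57e-12). These overlapped the 12 libraries of 2208, which ran from 1.26 through a median of 12.3 to 77.7 CPM. In MMTV-NEU 4 of 8 libraries were at 0 and the highest held 0.230 CPM (log2 difference -6.02 ± 0.93, adjusted p = 3.56e-08). Grem1 and Bmp4 were not related over the 13 model means (r = 0.05, rho = -0.16).

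Bambi (chr18:3507923-3516404, plus strand), a membrane pseudoreceptor that lacks a kinase and dampens signalling, stood alone high in 9263, where 7 libraries held 59.8 to 171 CPM with a median of 141 CPM. The highest library elsewhere held 43.5 CPM (2336), and the log2 difference was 3.54 ± 0.18 (adjusted p = 2.57e-29). It was lowest in E0771 (1.25 ± 0.646 CPM), 4T1 (2.26 ± 0.380 CPM) and T12 (2.75 ± 0.895 CPM). Fst, follistatin, which binds activin, was highest in KPB1-A (83.2 ± 16.3 CPM) and 9263 (60.9 ± 19.5 CPM) and lowest in MMTV-NEU (0.892 ± 0.743 CPM).

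Chordin and noggin were scarce. Chrd stood alone high in E0771 at 4.79 ± 0.657 CPM, with the next highest library at 3.47 CPM (4T1), and was lowest in 2153 (0.196 ± 0.0519 CPM). It shares up to 239 exon bases with Thpo on the opposite strand, a gene at a mean of 0.381 CPM. Nog was at most 4.46 CPM in any library and at 0 in 8 of 82, with its highest mean in MMTV-PYMT (1.41 ± 1.81 CPM), set by replicate 2, and its lowest in 2153 (0.0426 ± 0.0279 CPM).

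The intracellular members included the TGF-beta effector Smad3 (chr9:63646767-63757994, minus strand), which stood alone high in 4T1 at 256, 262, 215, 233 and 242 CPM. The highest other library held 198 CPM (2336), and the log2 difference was 1.31 ± 0.09 (adjusted p = 5.57e-21). Smad3 was lowest in KPB1-A (52.3 ± 10.5 CPM). Smad6, an inhibitory SMAD of the BMP branch, was highest in 2225 (14.8 ± 5.17 CPM) and 2224 (14.1 ± 3.51 CPM) and stood alone low in E0771, at 0.732 ± 0.236 CPM, just under T12 at 1.04 ± 0.0780 CPM.

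Smad7, the inhibitory SMAD of the TGF-beta branch, was highest in 4T1 (64.0 ± 7.42 CPM) and lowest in 2336 (11.6 ± 1.17 CPM). Skil, which encodes the SMAD corepressor SnoN, was highest in 2208 (256 ± 47.1 CPM) and 4T1 (220 ± 44.0 CPM) and stood alone low in 2336 (32.2 ± 3.21 CPM). Over the 13 model means, Smad7 went with Tgfb1 (r = 0.75, rho = 0.79) and less closely with Skil (r = 0.56, rho = 0.55). Smad6 and Smad7 were not related (r = -0.15, rho = -0.05). The 14 pairs of genes for which such values were computed share libraries and cell makeup, and these values only describe the models.

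The Id genes, which encode inhibitors of basic helix-loop-helix factors, fell into 2 patterns. Id1 and Id3 went together over the 13 model means (r = 0.75, rho = 0.75), and Id2 went the other way from Id1 (r = -0.55, rho = -0.64) and Id3 (r = -0.55, rho = -0.57). Id2 was highest in MMTV-NEU (299 ± 71.0 CPM), MMTV-PYMT (294 ± 87.1 CPM) and 2250 (252 ± 42.0 CPM), and lowest in E0771 (26.8 ± 10.5 CPM) and T12 (27.2 ± 5.63 CPM). Id3 was highest in 9263 (129 ± 60.6 CPM) and 4T1 (103 ± 9.08 CPM), and lowest in 2250 (4.13 ± 1.63 CPM). Id1 was highest in 9263 (34.9 ± 16.5 CPM) and E0771 (34.1 ± 3.38 CPM), and lowest in KPB1-A (1.34 ± 0.109 CPM).

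Id1 was weakly or not related to the BMP ligands tried across the models. For Id1 with Bmp4 r was 0.34 (rho = 0.23), for Id1 with Bmp7 it was -0.01 (rho = 0.03) and for Id1 with Smad6 it was 0.00 (rho = 0.05). The receptor Bmpr1b and the ligand Bmp7 were not related either (r = -0.13, rho = -0.19). KPB1-A held Bmp7 at 145 CPM and the lowest Id1 of all models. Within 2336, the model with the highest Bmp7, Id1 was 4.83, 8.63 and 5.06 CPM in replicates 1 to 3 and 45.4 and 54.4 CPM in replicates 4 and 5. Id3 there was 10.3, 12.9 and 8.21 against 38 and 46.8 CPM, and Id2 was 45.7, 56.1 and 41.9 against 124 and 119 CPM. Bmp7 itself was 601 to 704 CPM in the first 3 and 678 to 801 CPM in the other pair, and Sostdc1 was lower in that pair. The summed level of 6 basal markers, described with Bmp7, Inha and Sostdc1, was higher in the pair, at 5054 and 4829 CPM. Each of the first 3 held less, the highest at 3057.99 CPM. Summed fibroblast markers, described below, were also higher in the pair, at 2085 and 2938 CPM against 1840, 1696 and 1126 CPM. The part of either group of markers in this split was not tested.

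**Figure D3:**
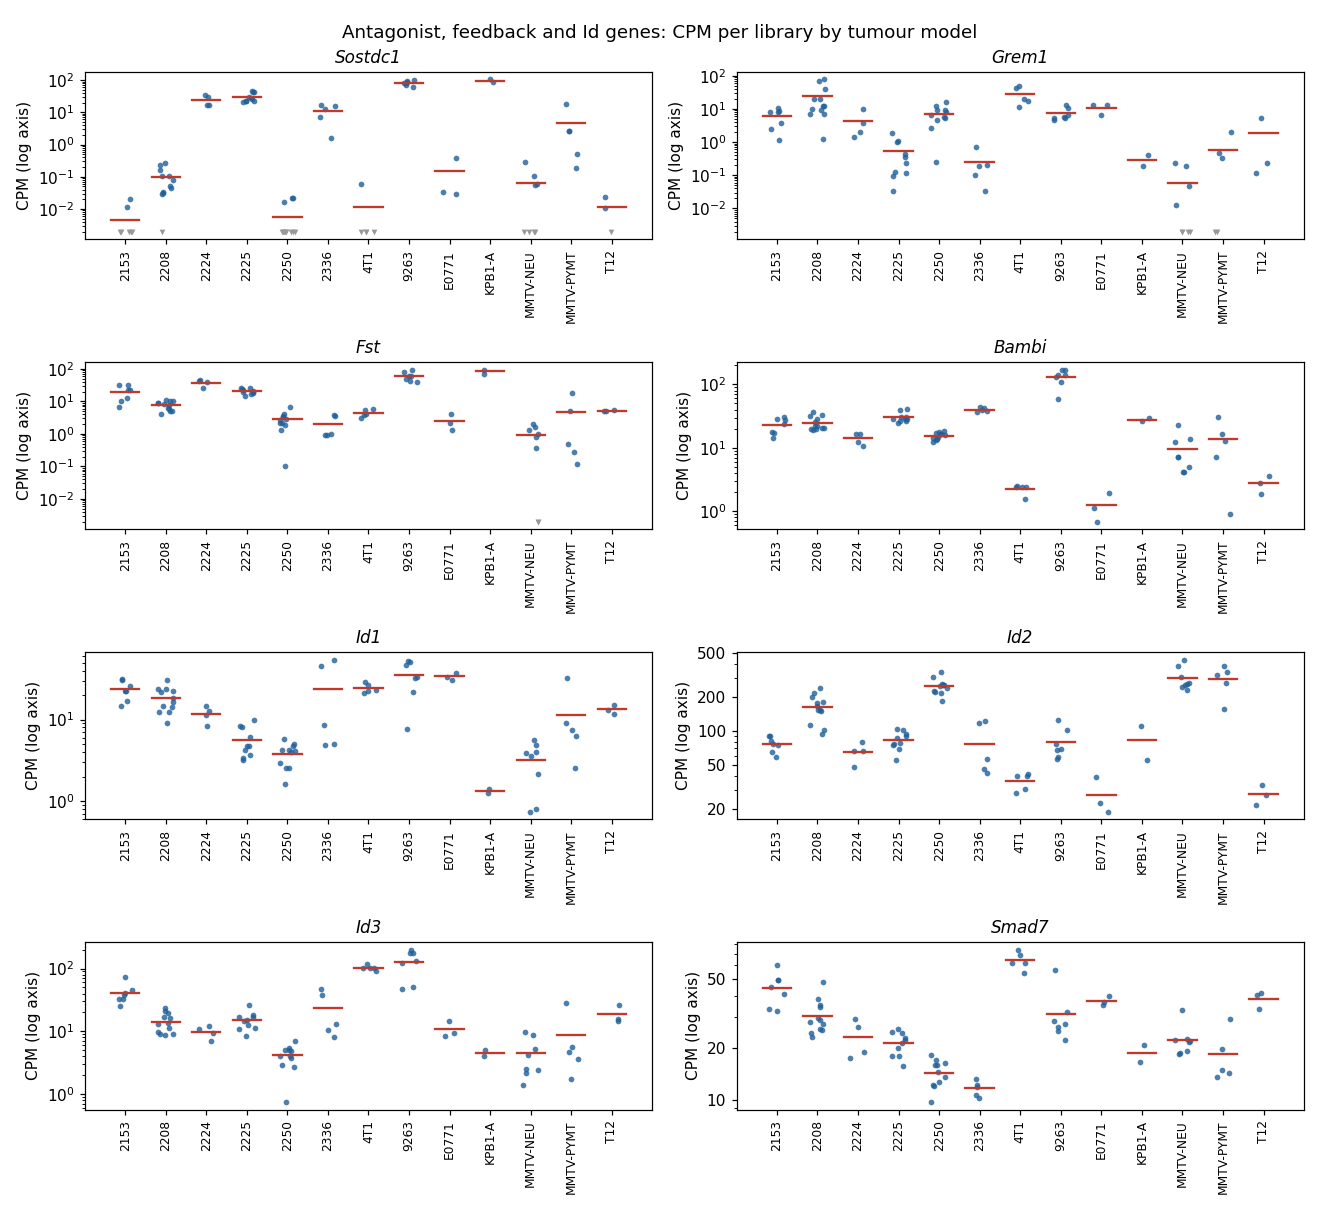
CPM per library on log axes for 4 antagonists, the 3 Id genes and Smad7 in the 13 models. Points are libraries, red bars are model means and grey triangles at the lower edge are libraries at 0. Sostdc1 divides the models, from 96.5 CPM on average in KPB1-A to 0.00452 CPM in 2153, and Id1 and Id3 split the 5 libraries of 2336.

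Of the genes of latent binding proteins, Ltbp1 and Ltbp3, whose products hold TGF-beta in the matrix, were highest in 4T1. Ltbp2 was highest in MMTV-NEU. Ltbp3 (chr19:5740904-5758532, plus strand) stood alone high in 4T1, at 1712, 1431, 1387, 1552 and 1472 CPM against 1205 CPM in the highest library elsewhere (2153). The log2 difference was 2.38 ± 0.12 (adjusted p = 2.02e-28). Ltbp1 (chr17:75005568-75392512, plus strand) stood alone high in the same model, at 443, 372, 432, 453 and 421 CPM against 243 CPM (2225), a log2 difference of 2.74 ± 0.19 (adjusted p = 2.91e-21). The lowest model was MMTV-NEU for Ltbp1, at 21.7 ± 19.3 CPM, and 9263 for Ltbp3, at 122 ± 31.0 CPM.

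Ltbp2 (chr12:84783212-84876532, minus strand), a family member that does not bind latent TGF-beta itself, was highest in MMTV-NEU, where 7 of 8 libraries held 1003 to 1411 CPM and replicate 8 held 272 CPM. The log2 difference was 4.16 ± 0.28 (adjusted p = 3.67e-22). 4T1 followed at 529 ± 24.3 CPM, above replicate 8, and 2225 was lowest at 7.60 ± 5.15 CPM. Ltbp2 and Tgfb3, both highest in MMTV-NEU, went together over the model means (r = 0.76, rho = 0.76). They lie 1.18 Mb apart on chromosome 12, and of the 16 tested protein-coding genes between them 2 (12.5%) had their highest model mean in MMTV-NEU, compared with 9.93% of all genes.

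Bmp7, Inha and Sostdc1 shared the same 5 highest models, namely 2224, 2225, 2336, 9263 and KPB1-A. These were also the 5 models with the highest summed level of 6 basal or myoepithelial markers (Krt5, Krt14, Krt17, Trp63, Oxtr and Acta2). Their basal sums ran from 797 to 5054 CPM over libraries, against 15.6 to 462 CPM in the other 8 models, except for replicate 1 of MMTV-PYMT at 1100 CPM. All 5 highest models matched the basal markers in 3 of the 38 genes (7.89%), compared with 278 of 22847 genes tested (1.22%). This pattern was looked for after the values were seen. For Bmp7 every library of the 5 models lay above every library of the other 8, which held for 22 of all genes tested.

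Replicate 1 of MMTV-PYMT, with the high basal sum, also held more Bmp7 (41.5 CPM against at most 2.83 in the other 4), Sostdc1 (17.8 against at most 2.59), Fst (18.0 against at most 4.92), Bmp2 (20.8 against at most 4.35) and Bmp4 (12 against at most 4.27). It did not hold more Inha, at 0.479 CPM against 0.336 to 2.59. Within models, as deviations from the model mean over 82 libraries, basal markers went most closely with Id3 (r = 0.68), Fst (r = 0.63), Bmp2 (r = 0.56), Bmp4 (r = 0.51), Id1 (r = 0.50), Bmpr1b (r = 0.48) and Sostdc1 (r = 0.46). The middle 90% of all genes lay between -0.25 and 0.40. Of the 3 genes that share the 5 basal models, Bmp7 (r = 0.30) and Inha (r = 0.29) lay inside that range. The same genes also went with the fibroblast markers described below, at r = 0.61 for Id3, 0.66 for Fst, 0.54 for Bmp2 and 0.46 for Bmp4. There r was 0.54 for Id1, 0.73 for Bmpr1b and 0.30 for Sostdc1. Basal and fibroblast markers were not separated from each other here. The part of basal cells in these levels was not tested.

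**Figure D4:**
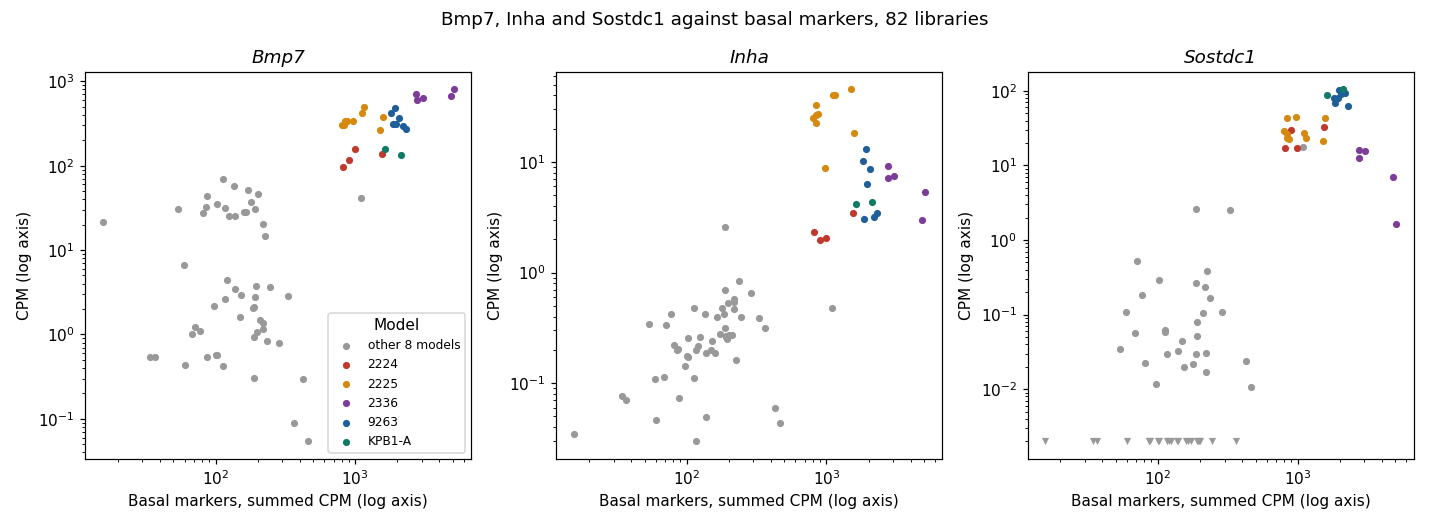
Bmp7, Inha and Sostdc1 in CPM against the summed CPM of 6 basal markers, log axes, 82 libraries. Colours mark the 5 models with the highest basal sums, grey the other 8, and triangles libraries at 0. For Bmp7 all coloured libraries lie above the grey ones, and for Inha and Sostdc1 some levels overlap. Coloured libraries lie to the right of the grey ones in each panel, with 1 exception. The single grey point near 1100 CPM of basal markers is replicate 1 of MMTV-PYMT.

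Counts of members called in each model were read against the share of all genes called the same way, given in brackets. In 2153, 21 of 38 were higher (29.4%) and 9 lower (23.6%). At 4-fold or more, 3 were higher (4.43%), namely Bmp2, Bmp5 and Inhbb, and 5 lower (4.08%), namely Bmp7, Inha, Nog, Chrd and Sostdc1. In 2208, 19 were higher (29.4%) and 8 lower (24.7%), with Grem1 at least 4-fold higher (4.03%) and Bmp7 and Sostdc1 at least 4-fold lower (2.27%).

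Bmp7 and Sostdc1 were at least 4-fold higher in each of the 5 models with high basal markers. In 2224, 15 were higher (24%) and 1 lower, Ltbp1 (14.8%), and Bmp7, Fst and Sostdc1 were at least 4-fold higher (6.79%) and 0 lower (1.12%). In 2225, 14 were higher (34.2%) and 16 lower (26.8%), with Bmp7, Inha and Sostdc1 at least 4-fold higher (6.99%) and Bmp3, Grem1 and Ltbp2 lower (4.57%). In 2336, 12 were higher (30.2%) and 14 lower (25.4%), with Bmp7, Inha and Sostdc1 at least 4-fold higher (7.76%) and Inhba, Fst and Grem1 lower (5.31%). Fst was thus high in 2224 and low in 2336.

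In 9263, 13 were higher (32.5%) and 12 lower (21.9%). There 8 were at least 4-fold higher (7.68%), namely Bmp2, Bmp4, Bmp7, Inha, Fst, Sostdc1, Bambi and Id3, and Tgfbr1 was lower (2.83%). Without replicates 2, 3 and 4 the counts were 16 (30.6%) and 18 (24.2%). KPB1-A had 17 members higher (24.9%) and 7 lower (14.4%), with 7 at least 4-fold higher (8.92%), among them Bmp6, Inhba, Fst and Nog, and Chrd, Id1 and Ltbp2 lower (1.99%). Without its replicate 1 the counts were 9 (14.9%) and 3 (9.49%), in a fit where the lone library left is assumed to vary as the other models do.

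In 4T1, 20 members were higher (25.5%) and 8 lower (23.6%). The 6 that were at least 4-fold higher there (5.83%) were Inhba, Grem1, Id3, Ltbp1, Ltbp2 and Ltbp3, and Tgfb2, Sostdc1 and Bambi were lower (4.94%). In 2250, 8 were higher (32.1%) and 20 lower (27.7%), with Tgfb2 at least 4-fold higher (5.78%) and Bmp2, Bmp4, Id3, Tgfbr3 and Sostdc1 lower (3.3%).

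E0771 had 7 higher (29.4%) and 20 lower (26.9%), with Chrd and Grem1 at least 4-fold higher (9.85%) and 9 lower (12.6%), including Bambi, Smad6, Inhbb and Tgfb2. T12 had 8 higher (24.4%) and 16 lower (23.8%), with Inhba at least 4-fold higher (6.99%) and 8 lower (8.24%), including Bmp7, Tgfb2, Acvr1b and Smad6. The summed epithelial markers (6 genes, none at 0) were lowest in these 2 models, at 234 to 338 CPM in T12 and 363 to 396 CPM in E0771 against at least 703 CPM in every other library. Macrophage markers were high in them, at 2185 to 2709 CPM and 1251 to 2392 CPM, and 4T1 overlapped E0771 at 1084 to 1958 CPM. E0771 also held T cell markers at 30.5 to 100.1 CPM and skeletal muscle markers at 403 to 2518 CPM, and T12 held them at 13.5 to 14.5 CPM and 0.630 to 0.770 CPM. The part of these cell types in the counts was not tested. With libraries of close label numbers summed, which leaves 1 unit for each of these models, E0771 had 4 higher (19.4%) and 11 lower (14.6%) and T12 had 3 higher (13.6%) and 11 lower (9.74%). A model with 1 unit is assumed there to vary as the other models do.

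MMTV-NEU had 14 higher (34%) and 18 lower (28.4%), with Tgfb3, Bmp3 and Ltbp2 at least 4-fold higher (9.14%) and 6 lower (4.86%), including Bmp7, Grem1 and Fst. Compared with the other FVB models only, 7 were higher (20.7%) and 15 lower (22.7%). MMTV-PYMT had 12 higher (31%) and 9 lower (20.5%), with Tgfb2, Bmp3, Nog and Sostdc1 at least 4-fold higher (9.2%) and Grem1 lower (2.68%). The Bmp3 level there rests on replicate 5, at 5.20 CPM, since the other 4 libraries held at most 0.729 CPM. Against the other FVB models 8 were higher (17.1%) and 3 lower (14.3%). Its replicate 5 was the only library of the 82 to correlate best with a library of another model, MMTV-NEU (r = 0.968 against 0.966 for its own). Without it 5 members were lower (19.3%), and without replicate 3 there were 4 (18.3%).

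Within models, members also moved with the markers of connective tissue. The summed level of 9 fibroblast markers (Col1a1, Col1a2, Col3a1, Dcn, Lum, Pdgfra, Pdgfrb, Fap and Dpt, none at 0 in all libraries of a model) ran from 118 CPM in a library of 2250 to 12012 CPM in a library of 2208. As deviations from the model mean over 82 libraries, it went most closely with Bmpr1b (r = 0.73), Fst (0.66), Ltbp2 (0.65), Id3 (0.61), Chrd (0.60) and Tgfb1 (0.59). The middle 90% of all genes lay between -0.37 and 0.56. Smad3 (r = -0.42) and Id2 (-0.40) went the other way. Macrophage markers went with Ltbp2 (r = 0.74) and Tgfb1 (r = 0.67) at least as closely, against a middle 90% of -0.46 to 0.56. Endothelial markers went with Bmpr1b (r = 0.75) and Ltbp2 (r = 0.68), against a middle 90% of -0.37 to 0.53. By ranks (Spearman rho with fibroblast markers), Bmpr1b (0.67), Ltbp2 (0.63), Chrd (0.52) and Tgfb1 (0.50) stayed above the middle 90% of all genes. Fst (0.47) and Id3 (0.46) fell inside it, at -0.35 to 0.48. The part of fibroblasts, macrophages or endothelial cells in these levels was not tested.

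Labels number the libraries. Grouping libraries of a model whose numbers lie within 10 of each other gave 38 sets, of which 26 held at least 2 libraries. What the numbers stand for is not given. For the 11 models with more than 1 set, the share of within-model variance in log2 CPM lying between sets was taken. Its median was 66.8% for the 38 members and 65.2% over all genes. Any such division gives some share by itself, and that amount was not computed. The split of Id1, Id2 and Id3 in 2336 followed these sets. Within sets (70 libraries) the relation with fibroblast markers stood at r = 0.74 for Bmpr1b, 0.83 for Fst, 0.77 for Id3, 0.63 for Ltbp2, 0.43 for Tgfb1 and 0.34 for Chrd, against a middle 90% of -0.35 to 0.53. Tgfb1 and Chrd thus fell inside the range of all genes. Bmp2 (0.75), Bmp4 (0.71), Id1 (0.68), Inhba (0.58), Bmp6 (0.57) and Grem1 (0.56) also lay above it.

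The sets also separated the libraries of 9263. Replicates 2, 3 and 4 held 5539, 10726 and 6298 CPM of fibroblast markers against 717 to 1692 CPM in the other 4, and 688 to 1205 CPM of macrophage markers against 39.7 to 140 CPM. Ltbp2 was 100 to 167 CPM in these 3 and 2.63 to 30.6 CPM in the rest. Tgfb1 was 82.5, 120 and 126 CPM against 33.8 to 56.5, and Smad6 was 13, 11.1 and 9.99 CPM against 2.67 to 6.03. Tgfb2 was lower in them, at 57.7, 47.3 and 46.1 CPM against 96.7 to 123, as were Inha, at 3.05, 3.44 and 3.18 against 6.35 to 13 CPM, and Bmp7, at 315, 274 and 297 against 316 to 477 CPM. Without these 3 libraries the within-model r with fibroblast markers was 0.66 for Bmpr1b, 0.75 for Fst, 0.56 for Ltbp2 and 0.61 for Id3.

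**Figure D5:**
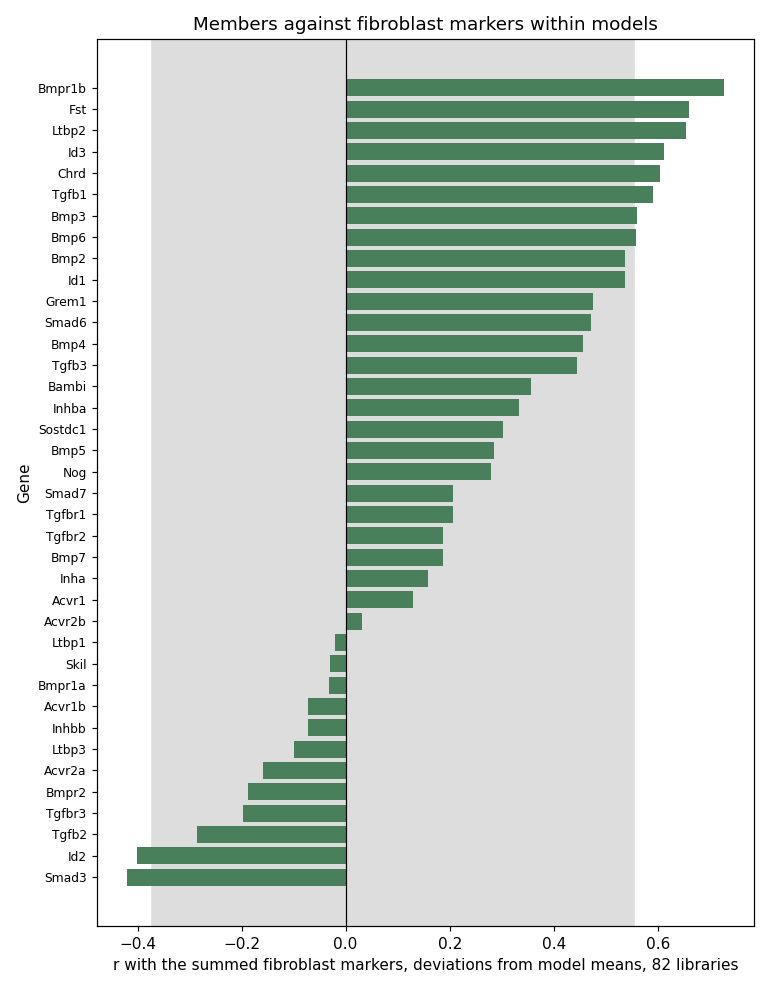
Pearson r between each of the 38 genes and the summed fibroblast markers, both as log2 deviations from model means, over 82 libraries. The grey band holds the middle 90% of all genes tested, -0.37 to 0.56. Bars of Bmpr1b, Fst, Ltbp2, Id3, Chrd, Tgfb1, Bmp3 and Bmp6 pass the upper edge, and those of Id2 and Smad3 the lower edge.

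Other genes of the pathway were taken from a list of 69, of which 61 passed the filter. All 61 differed among the models, beside the 98.2% of all genes, and 14 stood alone high at 5 CPM or more, compared with 14.4% of all genes. The 10 with the largest gap to the next model were led by Tll1, a protease that cleaves chordin, at 9.81 CPM in T12, 5.58 times the next model. Its relative Bmp1 held 672 to 895 CPM in the libraries of 4T1, with a mean 3.39 times that of the next model. The integrin subunit gene Itgb8, whose product helps to release latent TGF-beta, reached 103 CPM in KPB1-A.

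Among these 10, E0771 had the highest Tgfbi (616 CPM), which encodes a matrix protein, and the highest levels of the ligands Gdf15 (21.4 CPM) and Gdf3 (10.5 CPM). T12 had the highest Gdf11 (33.8 CPM), a ligand related to myostatin, and Rgmb (53.1 CPM), a BMP coreceptor. Hey1, a target of BMP and Notch signals, was highest in MMTV-NEU (350 CPM). Of the 61, the count higher in a model ran from 8 in KPB1-A (24.9% of all genes) to 25 in 2208 (29.4%) and MMTV-PYMT (31%). The count lower ran from 5 in 2224 (14.8%) to 26 in 2225 (26.8%) and MMTV-NEU (28.4%).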

How the data were processed

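RNA sequencing had been done on 82 tumours of 13 models, from cryopreserved tissue, RNeasy Mini columns and TruSeq mRNA libraries, per the labels' protocols. STAR, SAMtools, Picard, Salmon and mm10 are named without versions per the submitters' processing notes, and how they were combined is not given in the sources used here. The authors deposited expected counts per gene (an estimated count need not be whole). Of these values 85.5% were whole and 52.7% were 0. A second table that the authors deposited holds a normalized signal. By its values, each count was divided by the upper quartile of that library's counts above 0, multiplied by a constant, with every 0 replaced by 1. It served 1 alternative only.

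Rounded counts entered edgeR 4.0.16 (R 4.3.3). A filter on low counts within models (filterByExpr, with a minimum count of 10 and a minimum total of 15) left 22847 of 47480 genes. After TMM scaling, a robust quasi-likelihood fit with a mean for every model had 69 residual degrees of freedom. Each model was set against the average of the other 12 on the log2 scale. Calls needed an adjusted p under 0.05, and stricter ones a log2 difference of 2. Log2 CPM used a prior count of 2. The scripts were tested on simulated data. A count of 0 was read as allowing 3 counts, which covers counting error only, so depth sets that limit.

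Members, gene lists and tests were chosen with earlier results of these data known. By the rule for named genes, every member has its highest and lowest model. Values per library are given where a member stood alone high at 5 CPM or more, or differed by at least 4 (log2) at that level. Of the other pathway genes, up to 10 that stood alone high were named. Some items are not reported here. Among the alternatives were size factors from DESeq2 1.42.0, its own test, omitting the filter, limma 3.58.1 on the normalized table, a reference of the same strain, and leaving out libraries.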

Additional observations from a re-analysis of the deposited data

Results flagged for a closer look

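In 53 groups of 4 to 10 libraries with a named level, the highest or lowest library was compared with its nearest neighbour, and 6 stood apart from their group by Dixon's 95% limit. That limit is set to flag about 1 in 20 groups of independent, normally distributed values. These groups share libraries, were picked for their levels and hold CPM that need not be normal. The share that chance would flag here is therefore not known. Replicate 8 of MMTV-NEU accounts for 3 of them. It held Bmp7 at 6.70 CPM, where the next library held 1.02 CPM. It held Ltbp1 at 66.3 CPM, with the next at 27.2 CPM, and Ltbp2 at only 272 CPM, with the next at 1003 CPM. Without this library, chosen after seeing the data, 12 members were higher and 19 lower in MMTV-NEU, where 33.4% and 28.1% of all genes were. Replicate 1 of 2153 held Bmp2 at 35.5 CPM, and the next library held 18.8 CPM. For Sostdc1, replicate 1 of 4T1 held 0.0576 CPM while the other 4 libraries were at 0, so that any level above 0 would have been flagged. Replicate 6 of MMTV-NEU held Sostdc1 at 0.288 CPM, with the next at 0.108 CPM. Those Sostdc1 levels are near the limit that a count of 0 allows.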

How the results depend on the processing

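All 38 members differed among the models under every alternative run, with 38 in each of the 28 fits that left out 1 library. The named differences kept their direction and an adjusted p under 0.05 in 76 of 76 comparisons with libraries left out and in 203 of 203 with other settings. Counts stayed within 1.5 times in 85 of 90 and in 149 of 159. No library of 2153, 2225 or 2250 was left out in any fit. The 76 and the 90 therefore hold no named difference or count of these models. Members lower in 2224 (1 in the main analysis) came to 2 with the same-strain reference, 2 with DESeq2, 0 with counts summed by sets of label numbers, and 1 to 2 with a library left out. Members higher in KPB1-A (17) came to 9 to 12 with a library left out, and lower (7) to 3 to 5. For MMTV-NEU, higher (14) came to 7 with the same-strain reference and 9 with summed sets. For MMTV-PYMT, lower (9) came to 3 with the same-strain reference, 4 with summed sets and 4 to 9 with a library left out. With summed sets, chosen after seeing the data (38 sets, 25 residual degrees of freedom), E0771 had 4 higher (7) and 11 lower (20), and T12 had 3 higher (8). With these fewer units, 90.9% of all genes differed. The cause of the shifts in these counts was not tested. Size factors shifted the median of all genes by at most 0.04 log2 and limma by at most 0.15. With limma, the share of higher calls among all genes fell from 53.7% to 42.7% in 2250 and from 59.7% to 47.3% in 9263. It fell from 54.5% to 43.3% in MMTV-NEU and from 60.2% to 44.0% in MMTV-PYMT. Falls were from 54.4% to 44.5% in 2208, from 52.2% to 43.4% in E0771 and from 54.3% to 46.0% in 2336. Those in 2153, 2225 and KPB1-A were smaller. The share rose from 61.9% to 66.9% in 2224, from 50.6% to 55.5% in T12 and from 52.0% to 52.7% in 4T1. Replicate numbers only name libraries in accession order, so they give no pairing. Label numbers run across models, but sets were formed within models only, and no blocking across models was run. Depth limits genes near 0, such as Sostdc1, Bmp3 and Nog.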
